A study of Mus musculus with 12 samples.

Results

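The class I antigen presentation and immunoproteasome genes were described here across OT-I cells primed with either of 2 peptides, with or without corticosteroid. The set was a list of 10 gene symbols (H2-K1, H2-D1, B2m, Tap1, Tap2, Tapbp, Psmb8, Psmb9, Psmb10 and Nlrc5), chosen with earlier results of these data known. The symbols were matched to those of the array's annotation by a rule that uses the symbol and no measured value. Of these, 9 had a row, each a single one, among the 39462 genes with a symbol. No row carried the symbol H2-D1, so that member has no values here.

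Cells were OT-I, labelled as splenocytes. OT-I mice carry a transgenic T cell receptor, so that their CD8 T cells recognise an ovalbumin peptide held by the class I molecule H2-K. N4 is known as the natural, strongly stimulating form of that peptide and Y3 as an altered form bound more weakly by the receptor. The 4 groups were cells primed with Y3 and treated with corticosteroid, cells primed with Y3 alone, cells primed with N4 and treated with corticosteroid, and cells primed with N4 alone. Every culture ran for 4 days and every group was read on 3 arrays labelled as biological replicates 1, 2 and 3, which makes 12 arrays. The sources used here give neither the name nor the dose of the corticosteroid, and no age of the mice. The labels do not say whether the replicates were separate mice or separate cultures, and the p-values therefore measure only how far these arrays spread, which may in part be technical.

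Class I molecules show peptides from inside the cell to CD8 T cells. The proteasome cuts proteins into peptides, the TAP pump carries the peptides into the endoplasmic reticulum, tapasin holds an empty class I molecule beside the pump until a peptide fits, and beta 2 microglobulin completes the molecule. Interferons, acting in part through IRF1, are known to induce most of these genes, and NLRC5 is a coactivator that works at class I promoters. Under interferon, the immunoproteasome subunits replace the constitutive catalytic subunits of the proteasome. CD8 T cells carry this machinery themselves and express class I molecules at high levels.

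Signals are given on the log2 scale, where 1 unit is a doubling of the array signal. A level of 1 gene cannot be set against that of another gene, because probes differ in brightness. Differences between groups were tested with limma across all 39462 genes, and a gene was called at a Benjamini-Hochberg adjusted p below 0.05. Deviations of arrays with the same replicate number correlated positively in every comparison, though unevenly (r from 0.180 to 0.882). Each difference was therefore also fitted with the replicate number as a block, which compares arrays of the same number. In both peptide comparisons, however, Y3 replicate 2 correlated more with N4 replicate 3 than with N4 replicate 2, so that pairing is uncertain. All 9 genes lay above the brightest background control (5.41 to 6.40 on the log2 scale) on all 12 arrays. Against the labelled cell type, 7 of the 7 listed T cell genes with a row were above that line on every array. Of the listed B cell genes 7 of 8, and of the dendritic cell and myeloid genes 11 of 12, were under the line on every array. In such bulk samples, fewer cells of a type and less RNA per cell cannot be told apart.

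NLRC5, the coactivator, differed most with the peptide. Nlrc5 had log2 signals of 9.98, 11.07 and 11.38 in Y3-primed cells with corticosteroid, against 9.07, 10.10 and 9.95 in N4-primed cells with corticosteroid (replicates 1, 2 and 3). Without corticosteroid its log2 signals were 9.82, 10.55 and 11.41 in Y3-primed cells, against 8.77, 9.94 and 9.64 in N4-primed cells. The groups overlapped, because the replicate 1 array was the lowest of its group every time, but within each replicate number the Y3 array was the higher in 6 of 6 pairs. The pairs differed by 0.91, 0.97 and 1.43 with corticosteroid and by 1.05, 0.60 and 1.76 without it. With the replicate block, Nlrc5 rose in Y3-primed cells by 1.10 ± 0.19 with corticosteroid (limma, SE, adjusted p = 0.0115) and by 1.14 ± 0.19 without it (adjusted p = 0.0178), 2.15-fold and 2.20-fold. Without the block, limma gave the same differences with an SE of 0.50 and adjusted p of 0.452 and 0.567. With the replicate number as a random block, at an estimated correlation, both calls were lost (adjusted p = 0.147 and 0.199). The call with corticosteroid was lost when N4 plus corticosteroid replicate 3 (difference 0.96, adjusted p = 0.0508) or Y3 plus corticosteroid replicate 2 (1.11, adjusted p = 0.0562) was left out of the blocked limma fit. The call without corticosteroid was lost when replicate 1 or 3 of either group was left out, at differences of 0.90 to 1.17 and adjusted p up to 0.0636.

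Tapasin and the pump subunit TAP2 separated the peptides on every array of the same treatment. Tapbp, which encodes tapasin, had log2 signals of 12.36, 12.68 and 12.60 in Y3-primed cells with corticosteroid and 12.19, 12.33 and 12.61 in Y3-primed cells without it. In N4-primed cells its log2 signals were 11.56, 11.98 and 11.19 with corticosteroid and 11.69, 11.97 and 11.03 without it. The lowest Y3 array therefore lay above the highest N4 array, and the replicate 3 arrays of N4-primed cells were the lowest of all 12. With the block, Tapbp rose by 0.97 ± 0.22 in Y3-primed cells under corticosteroid (limma, adjusted p = 0.0338, 1.96-fold), and without the block the adjusted p was 0.152. It was 0.0544 with the replicate number as a random block and 0.0643 with the block on values centred on each array's median. That call was lost when any array of the compared groups, or Y3 replicate 1, was left out of the blocked fit, at differences of 0.81 to 1.09 and adjusted p up to 0.129. Without corticosteroid the difference of 0.81 ± 0.22 was not called with the block (limma, adjusted p = 0.0916).

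Tap2 had log2 signals of 10.42, 10.62 and 10.71 in Y3-primed cells with corticosteroid, against 9.78, 10.41 and 10.04 in N4-primed cells with it. Without corticosteroid it had 10.37, 10.42 and 10.89 in Y3-primed cells, against 10.05, 10.23 and 10.00 in N4-primed cells. These groups did not overlap, although with corticosteroid the gap between the lowest Y3 array (10.42) and the highest N4 array (10.41) was small. The Tap2 differences of 0.50 ± 0.15 with and 0.47 ± 0.15 without corticosteroid were not called with the block (limma, adjusted p = 0.0915 and 0.156) or without it. Tap1, the other subunit of the pump, had 12.64, 13.11 and 12.94 in Y3-primed cells with corticosteroid, against 11.45, 12.99 and 13.01 in N4-primed cells with it. Only the replicate 1 arrays of these groups lay far apart. Without corticosteroid Tap1 had 12.35, 13.04 and 13.23 in Y3-primed cells, against 11.71, 12.75 and 12.82 in N4-primed cells, higher with Y3 in 3 of 3 pairs. Its differences of 0.42 and 0.45 were not called, and without the replicate 1 array of N4-primed cells they were -0.10 with and 0.091 without corticosteroid.

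**Figure D1:**
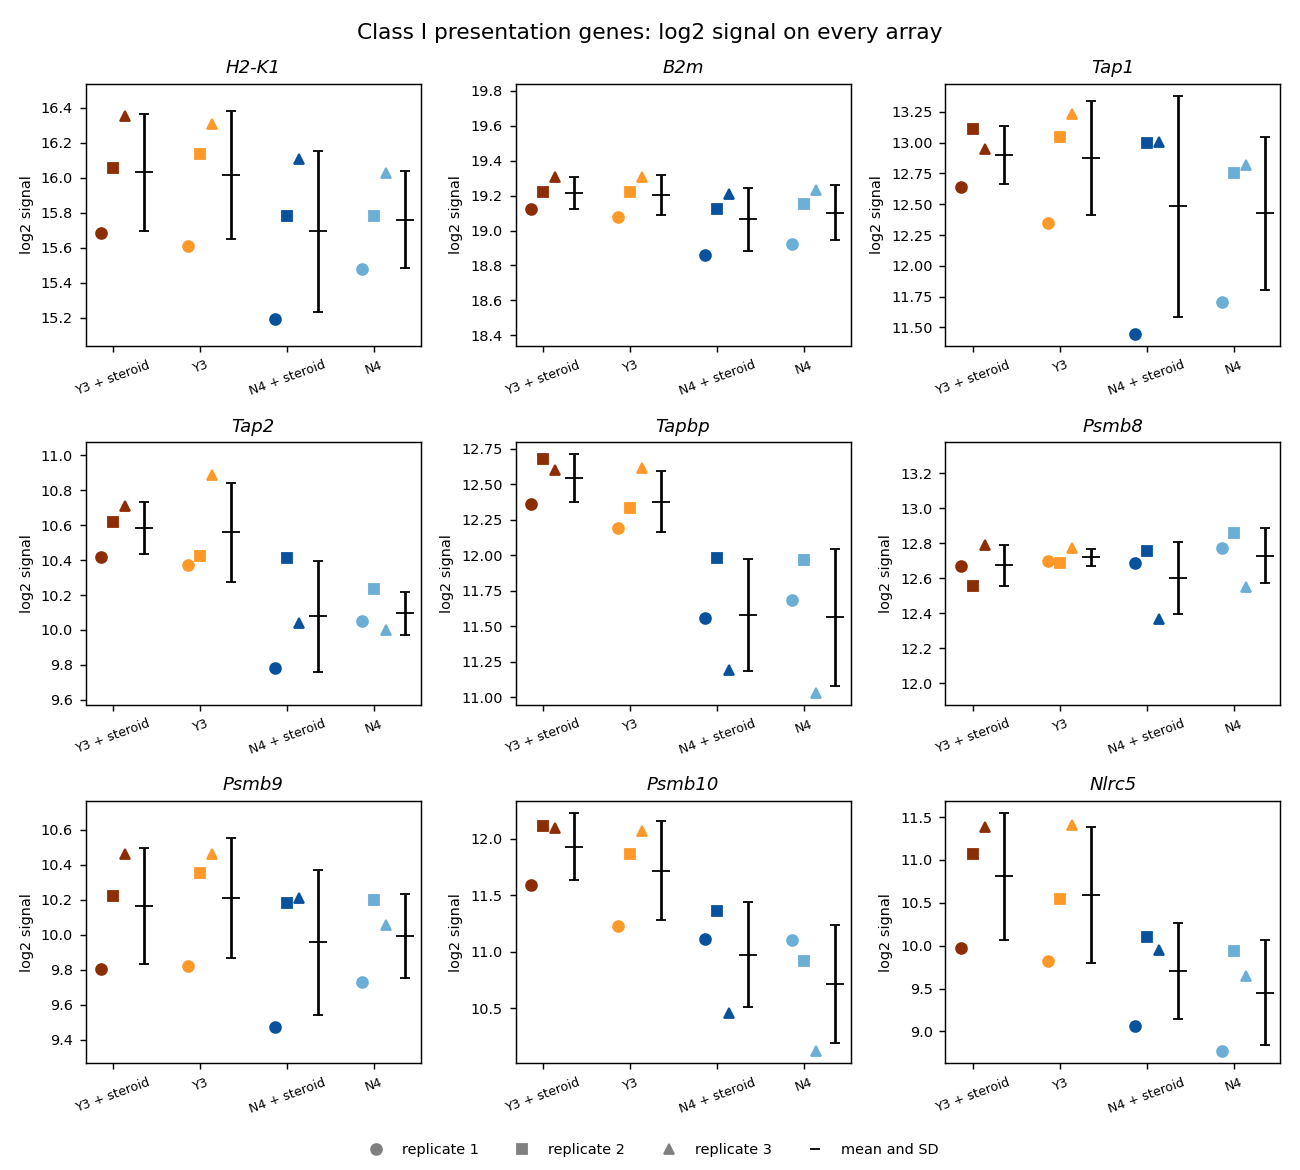
Log2 signal (vertical axis, range set for each gene) of the 9 genes on each array, by group from Y3 with corticosteroid at the left to N4 without it at the right, with the replicate number as the symbol and the mean with its SD (n = 3) in black. Tap2, Tapbp and Psmb10 lie higher on every Y3 array than on every N4 array of the same treatment, while H2-K1, B2m, Tap1, Psmb9 and Nlrc5 are lowest on the replicate 1 array of every group.

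Among the immunoproteasome subunits, Psmb10 differed with the peptide and Psmb8 hardly did. Psmb10 encodes the beta 2i subunit. It had log2 signals of 11.59, 12.11 and 12.10 in Y3-primed cells with corticosteroid, against 11.11, 11.36 and 10.46 in N4-primed cells with it. Without corticosteroid it had 11.23, 11.87 and 12.07 in Y3-primed cells, against 11.10, 10.92 and 10.12 in N4-primed cells. Every Y3 array lay above every N4 array of the same treatment, by 0.12 in the closest same-number pair and by 1.95 in the widest, both without corticosteroid. The mean differences of 0.96 ± 0.31 with and 1.01 ± 0.31 without corticosteroid (1.94-fold and 2.01-fold) were not called with the block (limma, adjusted p = 0.116 and 0.130) or without it (0.273 and 0.381).

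Psmb9, the beta 1i subunit, had 9.81, 10.22 and 10.46 in Y3-primed cells with corticosteroid, against 9.47, 10.18 and 10.21 in N4-primed cells with it. Without corticosteroid it had 9.82, 10.35 and 10.46 in Y3-primed cells, against 9.73, 10.20 and 10.05 in N4-primed cells. The Y3 array was the higher in 6 of 6 pairs, but the groups overlapped, and the difference with corticosteroid was -0.03 when N4 plus corticosteroid replicate 1 was left out. Psmb9 differed by 0.21 ± 0.10 with and 0.22 ± 0.10 without corticosteroid in the blocked limma fit, which was not called (adjusted p = 0.306 and 0.323).

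Psmb8, the beta 5i subunit, had 12.67, 12.56 and 12.79 in Y3-primed cells with corticosteroid, against 12.69, 12.75 and 12.37 in N4-primed cells with it. Without corticosteroid it had 12.70, 12.69 and 12.77 in Y3-primed cells, against 12.78, 12.86 and 12.55 in N4-primed cells. The Y3 array was the higher in 1 of 3 pairs under either treatment, that of replicate 3. The Psmb8 difference was 0.07 (95% interval from -0.20 to 0.35) with and -0.01 (from -0.28 to 0.27) without corticosteroid in the blocked limma fit, so that a difference beyond 1.27-fold lay outside both intervals.

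The class I heavy chain H2-K1 and its light chain B2m were not called in either comparison. H2-K1, the heavy chain that presents the OT-I peptide, had log2 signals of 15.68, 16.06 and 16.35 in Y3-primed cells with corticosteroid, against 15.19, 15.78 and 16.11 in N4-primed cells with it. Without corticosteroid it had 15.61, 16.13 and 16.31 in Y3-primed cells, against 15.48, 15.78 and 16.03 in N4-primed cells. The order of the replicates was the same in all 4 groups, the groups overlapped, and the Y3 array was the higher in 6 of 6 pairs. H2-K1 differed by 0.34 ± 0.09 with corticosteroid (1.26-fold), which was not called with the block (limma, adjusted p = 0.0509), and by 0.26 ± 0.09 without it (adjusted p = 0.169). Without the block the limma adjusted p was 0.758 with and 0.898 without corticosteroid, and with the random block 0.448 and 0.654. Class I genes are near-identical copies of each other, so how far the H2-K1 row reads RNA of its relatives is uncertain. The row named H2-L, after another class I locus of the D region, had 14.04, 14.28 and 14.42 in Y3-primed cells with corticosteroid, against 13.57, 14.05 and 14.19 in N4-primed cells with it. Which class I RNA that row reads, that of H2-D1 included, was not tested.

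B2m encodes beta 2 microglobulin. It had 19.12, 19.22 and 19.31 in Y3-primed cells with corticosteroid, against 18.86, 19.12 and 19.21 in N4-primed cells with it, and 19.08, 19.22 and 19.31 in Y3-primed cells without corticosteroid, against 18.92, 19.15 and 19.23 in N4-primed cells without it. The differences of 0.15 ± 0.07 and 0.10 ± 0.07 were small and not called (blocked limma, adjusted p = 0.289 and 0.583), with the Y3 array the higher in 6 of 6 pairs. Without the replicate 1 array of N4-primed cells they were 0.052 and 0.011, and over all left-out arrays they reached 0.23 and 0.16. The B2m signal was close to the top of the scale, where 29 to 70 genes per array were brighter and the brightest reached 19.82 to 19.92, and whether its range was compressed there was not tested.

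Over the whole set, 2 of 9 genes with corticosteroid and 1 of 9 without it were called with the replicate block, all higher in Y3-primed cells, against 3.44% and 1.7% of all genes called higher (6.53% and 2.94% in either direction). Because the genes were chosen with earlier results of these data known, the counts and medians in this paragraph describe them and do not test the set. Without the block 0 of 9 were called in limma in each, against 0.256% and 0.0304% of all genes. In that fit 3 and 4 of the 9 had an unadjusted p below 0.05, against 4372 and 3380 of all 39462 genes. The median difference of the 9 genes was 0.42 with and 0.45 without corticosteroid, while that of all genes was -0.0068 and -0.0026. When a replicate 1 array of N4-primed cells was left out of its comparison, these medians were 0.11 in both. The Y3 arrays lay wholly above the N4 arrays for 3 of the 9 genes (Tap2, Tapbp and Psmb10) in each comparison, against 7.91% of all genes with and 5.24% without corticosteroid. The comparisons with and without corticosteroid share no arrays, but they share the replicate numbers and the estimate of the spread. Pairs with and without corticosteroid therefore repeat the same replicate numbers and are not independent of each other.

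**Figure D2:**
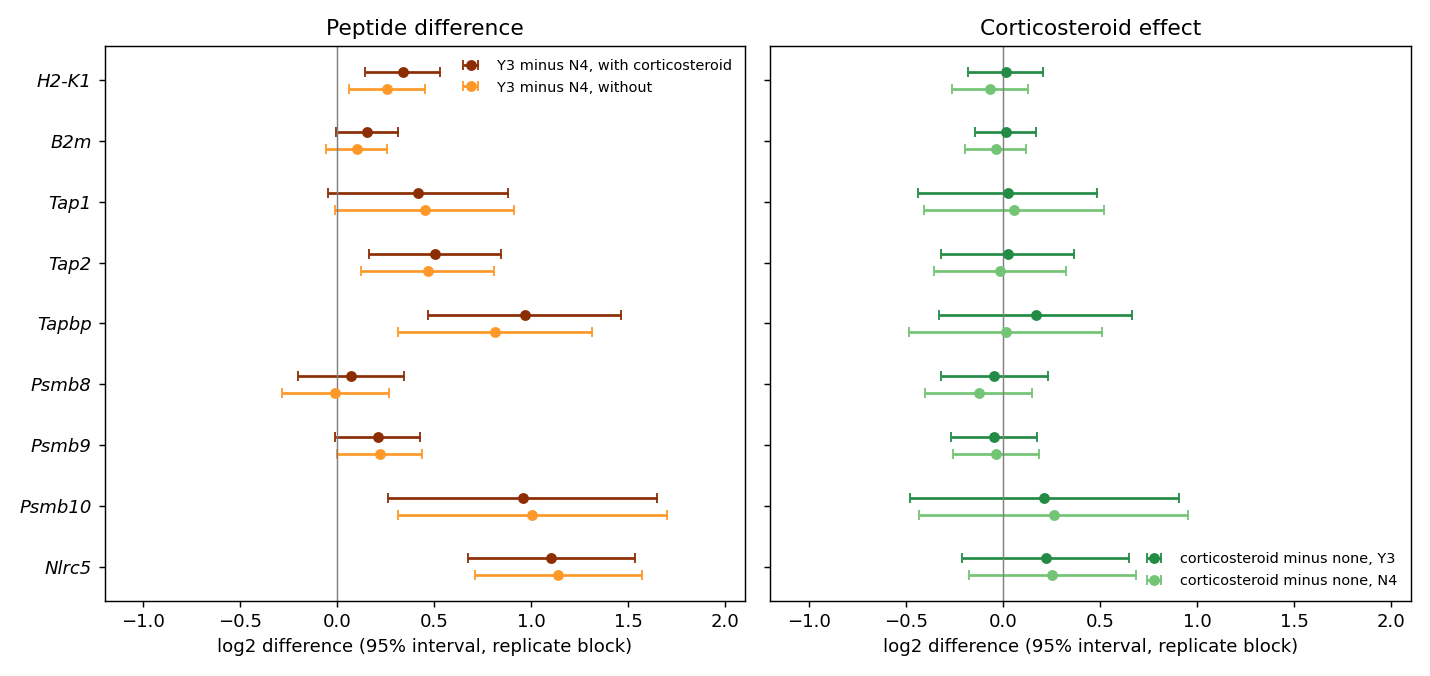
Differences in log2 signal with 95% intervals from limma with the replicate block (n = 3 arrays per group), for Y3 minus N4 (left) and corticosteroid minus none (right). Nlrc5, Psmb10 and Tapbp have the largest peptide differences of the 9 genes, from 0.81 to 1.14, and all corticosteroid effects lie between -0.13 and 0.26 with intervals that include 0.

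Corticosteroid gave no call in any of the 9 genes. In Y3-primed cells its effects ran from -0.05 (Psmb9) to 0.22 (Nlrc5), with a median of 0.02 against 0.00014 for all genes, and in N4-primed cells from -0.13 (Psmb8) to 0.26 (Psmb10), with a median of -0.02 against 0.0036 for all genes. With limma 0 of 9 were called with or without the block and 0 had an unadjusted p below 0.05, against 0% of all genes called in Y3-primed cells and 0% in N4-primed cells without the block (0.00253% in N4-primed cells with it). The 95% intervals with the block reached from -0.48 to 0.90 in Y3-primed cells and from -0.48 to 0.95 in N4-primed cells, the widest being those of Psmb10. Changes of the size of the Nlrc5 peptide difference lay outside all of these blocked intervals. Without the block they lay inside those of Nlrc5 itself, from -0.89 to 1.32 in Y3-primed cells and from -0.85 to 1.36 in N4-primed cells. For B2m, whose intervals with the block were the narrowest, the effect was 0.01 (from -0.14 to 0.17) in Y3-primed cells and -0.04 (from -0.20 to 0.12) in N4-primed cells. The Nlrc5 signal was higher with corticosteroid in 5 of 6 same-number pairs and that of Psmb10 in 6 of 6. The difference between the corticosteroid effects under the 2 peptides, Y3 minus N4, lay between -0.05 and 0.15 for the 9 genes, and 0 of 9 were called or had an unadjusted p below 0.05 in limma with or without the block, against 0% of all genes called.

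The replicate number also separated these genes. The replicate 1 array was the lowest of its group in 4 of 4 groups for 5 of the 9 genes (H2-K1, B2m, Tap1, Psmb9 and Nlrc5), against 12.1% of all genes. For Tap1 the largest gap between replicate means was 0.96, against 0.47 for the largest gap between group means. The gap was also wider between replicates than between groups for H2-K1 (0.71 against 0.34), Psmb9 (0.59 against 0.26) and B2m (0.27 against 0.15). Tapbp and Psmb10 took another course, since their lowest arrays were replicate 3 arrays of N4-primed cells in both treatments while replicate 3 of Y3-primed cells stood at or near the top.

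Promoter windows are shown because interferon and steroid responses are read through such sequences. They were taken from RefSeq (GRCm38.p6) as the 250 bases before each start, which 8 of the 10 genes had. Capitals mark matches to the interferon response pattern (GAAA, any 2 bases, GAAA) or its looser form GAANNGAAA, or to the site alpha pattern TGACGC bound by CREB-type factors at class I promoters. Both strands were searched, and the looser form was added after the H2-K1 window had been read. These are the windows of the light chain and the heavy chain:
B2m, chr2:122147437-122147686, plus strand: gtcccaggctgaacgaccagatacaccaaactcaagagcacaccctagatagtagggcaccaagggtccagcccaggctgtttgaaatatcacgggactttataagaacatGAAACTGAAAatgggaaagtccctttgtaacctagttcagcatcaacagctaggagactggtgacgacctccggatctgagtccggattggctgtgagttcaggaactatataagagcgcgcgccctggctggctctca
H2-K1, chr17:34000348-34000597, minus strand: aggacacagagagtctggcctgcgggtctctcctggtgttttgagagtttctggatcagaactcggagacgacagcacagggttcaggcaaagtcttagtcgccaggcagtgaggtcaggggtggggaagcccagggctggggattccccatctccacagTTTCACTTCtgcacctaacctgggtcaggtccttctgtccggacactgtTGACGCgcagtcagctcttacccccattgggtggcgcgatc
The B2m window holds GAAACTGAAA at 139 to 130 bases before the start. Such a match was found in 2.98% of the 32851 mouse windows of this length that were searched, which did not cover every chromosome. The first of the H2-K1 windows, shown here, holds the looser form on the minus strand at 90 to 82 bases before the start (6.31% of windows) and TGACGC at 41 to 36 bases before it (6.12% of windows). The H2-D1 window holds the same pair of matches.

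The next windows belong to the Tap1 and Psmb9 pair, to the called gene Tapbp and to Psmb10:
Tap1, chr17:34187306-34187555, plus strand: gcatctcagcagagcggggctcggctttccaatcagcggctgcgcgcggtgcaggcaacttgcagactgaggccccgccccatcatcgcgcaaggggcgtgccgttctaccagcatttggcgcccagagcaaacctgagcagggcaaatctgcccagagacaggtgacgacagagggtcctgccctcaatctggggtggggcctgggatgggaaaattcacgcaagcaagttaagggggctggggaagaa
Tapbp, chr17:33919228-33919477, plus strand: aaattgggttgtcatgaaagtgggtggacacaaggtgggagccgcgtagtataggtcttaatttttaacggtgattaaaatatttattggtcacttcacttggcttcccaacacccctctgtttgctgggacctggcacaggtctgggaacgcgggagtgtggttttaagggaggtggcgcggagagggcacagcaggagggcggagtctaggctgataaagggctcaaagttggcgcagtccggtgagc
Psmb10, chr8:105938393-105938642, minus strand: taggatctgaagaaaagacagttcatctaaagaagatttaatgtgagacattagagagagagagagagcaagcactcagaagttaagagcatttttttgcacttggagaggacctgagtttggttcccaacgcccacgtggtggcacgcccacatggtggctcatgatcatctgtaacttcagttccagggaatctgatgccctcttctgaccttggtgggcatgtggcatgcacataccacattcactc
Tap1 and Psmb9 are transcribed away from each other, and 225 of the 250 bases of their windows are the same stretch. Tap1, Psmb9, Tapbp, Psmb8 and Psmb10 hold neither interferon pattern and no site alpha match in these windows. No window of a member holds the glucocorticoid response pattern (G, any base, ACA, any 3 bases, TGT, any base, C), which 0.387% of the windows searched hold. The commoner CCAAT box, in 33.8% of windows, occurs in those of B2m, H2-K1, H2-D1, Tap1, Psmb9 and Tapbp. A match is a description of the letters and not a site in use. In RefSeq's gene order Psmb9, Tap1, Psmb8 and Tap2 follow each other, and their peptide differences without corticosteroid were 0.22, 0.45, -0.01 and 0.47, none of them called.

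Each immunoproteasome subunit replaces a constitutive one, Psmb10 (beta 2i) replacing Psmb7, Psmb9 (beta 1i) Psmb6 and Psmb8 (beta 5i) Psmb5. None of the 3 constitutive genes was called with or without the block, and their differences between Y3-primed and N4-primed cells ran from -0.51 to -0.02 with corticosteroid and from -0.40 to -0.07 without it. The ratio of the immunoproteasome subunit to its counterpart was formed on each array, a choice made after the values had been seen, and only its change between groups carries meaning. The Psmb10 to Psmb7 difference of log2 signals was -1.86, -0.70 and -0.90 in Y3-primed cells with corticosteroid, against -3.06, -2.15 and -2.65 in N4-primed cells with it. Without corticosteroid it was -2.48, -1.31 and -1.12 in Y3-primed cells, against -3.19, -2.86 and -3.07 in N4-primed cells. The groups did not overlap, and the ratio was higher in Y3-primed cells by 1.47 (2.77-fold) with and 1.40 (2.65-fold) without corticosteroid, in 6 of 6 pairs. The two-sided exact permutation p was 0.1 in each, the smallest that 3 against 3 arrays allow, and 0.6 after adjustment over the 12 ratios and comparisons tested. For Psmb9 to Psmb6 the difference was 0.55 with and 0.43 without corticosteroid (exact p = 0.5 each), higher in 6 of 6 pairs, and without the replicate 1 array of N4-primed cells it was 0.045 and 0.093. For Psmb8 to Psmb5 it was 0.10 and 0.07 (exact p = 0.8 and 0.9), with the replicate 3 pairs the other way. With 1 array left out, that difference ran from -0.44 to 0.54 with and from -0.56 to 0.63 without corticosteroid, so that its direction turned, while that of Psmb9 to Psmb6 ran from 0.045 to 0.86 and from 0.093 to 0.78 and that of Psmb10 to Psmb7 from 1.24 to 1.82 and from 1.15 to 1.83.

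**Figure D3:**
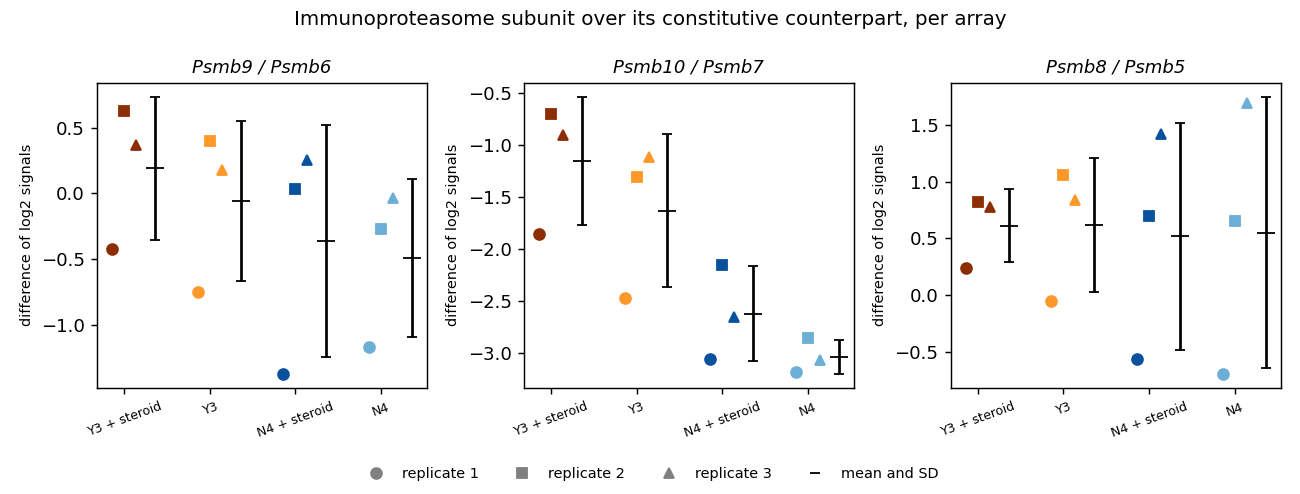
Difference of log2 signals (vertical axis, range set for each panel) between each immunoproteasome subunit and the constitutive subunit it replaces, per array, by group from Y3 with corticosteroid at the left to N4 without it at the right, with replicate symbols and the mean with its SD (n = 3). Psmb10 over Psmb7 lies between -2.48 and -0.70 on Y3 arrays and between -3.19 and -2.15 on N4 arrays, while Psmb8 over Psmb5 overlaps widely.

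Other genes of the pathway were taken from lists written with earlier results of these data known, 72 genes of which 71 had a row. With the replicate block 15 of 71 were called with corticosteroid (13 higher and 2 lower in Y3-primed cells) and 13 of 71 without it (12 higher and 1 lower), against 3.44% higher and 3.09% lower, and 1.7% higher and 1.24% lower, of all genes. When each array was left out in turn these counts ran from 9 to 17 and from 3 to 15. With corticosteroid the count was 9 without replicate 1 or 2 of either compared group. Without corticosteroid it was 3 to 7 when any array of the compared groups was left out and 8 without Y3 plus corticosteroid replicate 2. Without the block 0 of 71 were called in limma. An unadjusted p below 0.05 was found for 14 and 12 of them, against 4372 and 3380 of all 39462 genes. The median of the 71 was 0.04 with and 0.02 without corticosteroid. Corticosteroid itself, and the difference between its effects, called 0 of 71 with or without the block. For corticosteroid with the block, 4 in Y3-primed and 2 in N4-primed cells were below an unadjusted p of 0.05. Of all 39462 genes, 2649 and 1312 were below it in the same fits.

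Of the regulators of class I transcription 6 of 17 were called in both comparisons, all higher in Y3-primed cells, where 2.54% of all genes were called in both in the same direction. Irf1, an activator of class I genes, had 10.45, 12.28 and 11.91 in Y3-primed cells with corticosteroid, against 8.58, 10.78 and 10.77 in N4-primed cells with it. It rose by 1.5 ± 0.20 with and 1.30 ± 0.20 without corticosteroid (adjusted p = 0.00407 and 0.0126 with the block, 0.573 and 0.764 without it). Irf7, an interferon-induced factor of the same family, rose by 1.98 and 2.22 and Irf9, the DNA-binding subunit of an interferon-activated complex, by 0.90 and 0.89. Creb1, of the family that binds site alpha, rose by 0.73 and 0.65, and Rfxank, a subunit of the RFX complex at class I and class II promoters, by 0.46 and 0.57. Called or not, 12 of the 17 were higher and 5 lower in Y3-primed cells with corticosteroid, and 10 and 7 without it. Irf8 averaged 9.21 and 9.08 in Y3-primed cells with and without corticosteroid, against 9.80 and 9.77 in N4-primed cells. Rfxap, another RFX subunit, averaged 8.21 and 8.23, against 8.27 and 8.27. Neither was called, and both are named after their values were seen. Ciita, the class II coactivator related to Nlrc5, was under the background line on all 12 arrays.

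Of the 8 genes of interferon gamma, the interferon receptor chains and their kinases, 3 with corticosteroid and 2 without it were called, all higher in Y3-primed cells. Over all genes, 3.44% with and 1.7% without corticosteroid were called higher with the replicate block. Ifnar1 rose by 0.96 and 0.90 and the kinase Jak1 by 0.88 and 0.71, with and without corticosteroid, while Ifngr1 rose by 0.98 with corticosteroid (adjusted p = 0.0320) and differed by 0.92 without it (adjusted p = 0.0611). Its partner chain Ifngr2 differed by -0.39 and -0.74, lower in Y3-primed cells, was not called and is named after its values were seen. Ifnar2, the partner of Ifnar1, averaged 10.59 and 10.84 in Y3-primed cells with and without corticosteroid, against 10.50 and 10.69 in N4-primed cells. It too was not called and is named after its values were seen. Ifng, the gene of interferon gamma, lay the other way. It had log2 signals of 6.38, 4.30 and 6.63 in Y3-primed cells with corticosteroid and 9.05, 6.0 and 8.94 in Y3-primed cells without it. In N4-primed cells it had 12.93, 5.47 and 6.78 with corticosteroid and 15.06, 8.39 and 9.78 without it. The replicate 1 arrays of N4-primed cells were far above the rest, and Ifng was lower with corticosteroid in 6 of 6 pairs and lower with Y3 in 6 of 6 pairs. Several of the other arrays lay near or under the background line. None of these Ifng differences was called (limma, adjusted p = 0.238 or above with the block). On those replicate 1 arrays of N4-primed cells, where Ifng was highest, Nlrc5, Tap1 and Irf1 were at their lowest of the 12 arrays, and whether these are linked was not tested.

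In peptide supply and loading, 3 of 12 genes were called in both comparisons (2.54% of all genes). Erap1, the aminopeptidase that trims peptides in the endoplasmic reticulum, had 12.16, 12.63 and 12.60 in Y3-primed cells with corticosteroid, against 11.59, 11.60 and 11.56 in N4-primed cells with it. Every Y3 array lay above every N4 array, and Erap1 rose by 0.88 ± 0.13 with and 0.85 ± 0.13 without corticosteroid (limma with the block, adjusted p = 0.00699 and 0.0140, and 0.0754 and 0.166 without it). Psme2, a subunit of the PA28 proteasome activator, rose by 0.51 and 0.54, while its partner Psme1 differed by 0.05 and 0.11 and was not called. Canx, the chaperone calnexin that holds newly made heavy chains, fell by 0.44 and 0.35, and Pdia3, the disulfide isomerase of the loading complex, differed by -0.11 and -0.08 and was not called. Psmg1, a chaperone of proteasome assembly, fell by 0.91 with corticosteroid (adjusted p = 0.0179) and differed by -0.76 without it (adjusted p = 0.0559). Of the 11 other subunits of the proteasome core 0 were called in any comparison. Below an unadjusted p of 0.05 was 1 with the block, for the peptide under corticosteroid, and 0 without the block. Of all 39462 genes, 7248 were below it in that blocked comparison.

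Among the class I relatives, 2 of 15 with a row were called in both comparisons (2.54% of all genes). H2-T24, a gene of the T region, had 8.05, 9.06 and 9.04 in Y3-primed cells with corticosteroid, against 6.97, 7.29 and 7.11 in N4-primed cells with it, a rise of 1.59 ± 0.22 (limma with the block, adjusted p = 0.00491) that was 1.62 without corticosteroid (adjusted p = 0.00782). Cd1d1, which presents lipids, rose by 0.76 and 0.86.

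How firmly these calls stood was read from the 12 blocked limma fits that each left out 1 array. With corticosteroid, the calls of Irf1, Irf7, Ifnar1, Canx, Erap1, H2-T24 and Cd1d1 held in all 12 fits, that of Jak1 in 10, Irf9 in 9, Creb1 and Psmg1 in 8, Ifngr1 in 7, Psme2 in 6 and Rfxank in 2. They were lost without arrays of the compared groups, and for Ifngr1 also without N4 replicate 2 and for Rfxank also without replicate 1 or 2 of N4 or Y3. Without corticosteroid, the call of Cd1d1 held in all 12 fits, that of H2-T24 in 11, Ifnar1 in 10, Erap1, Irf1, Irf7 and Irf9 in 8, Psme2 in 5, Rfxank, Creb1 and Jak1 in 4 and Canx in 3. These too were lost without arrays of the compared groups, and the calls of Psme2, Rfxank, Creb1, Jak1 and Canx also without Y3 plus corticosteroid replicate 2. Those of Rfxank, Creb1, Jak1 and Canx were lost without N4 plus corticosteroid replicate 2 as well, and that of Canx without N4 plus corticosteroid replicate 1.

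**Figure D4:**
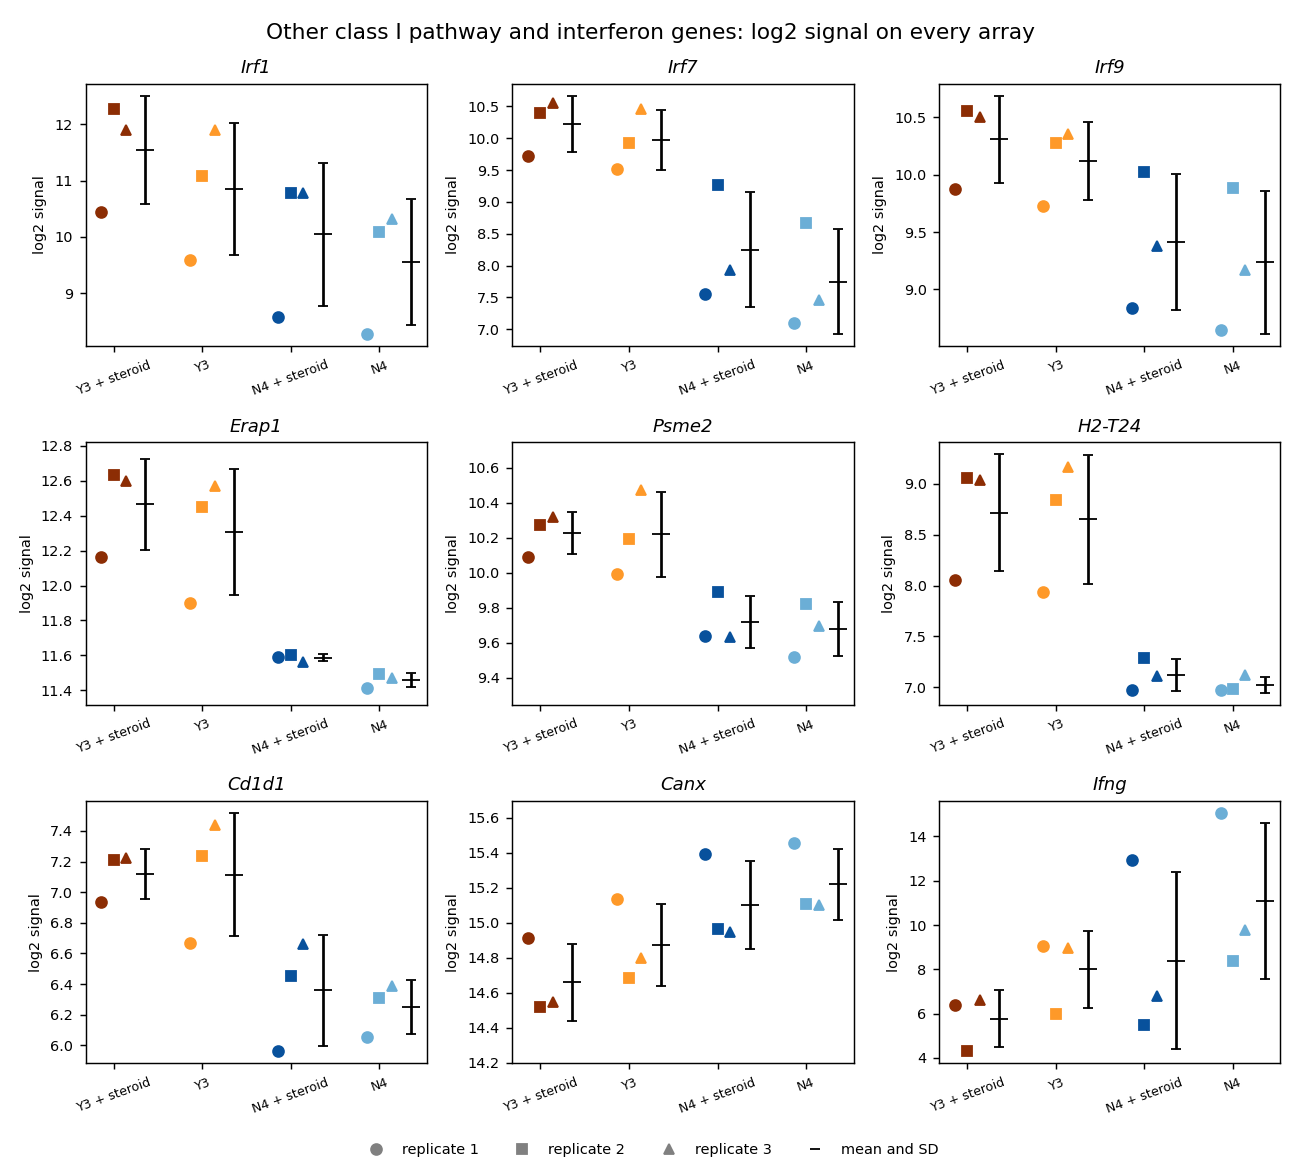
Log2 signal (vertical axis, range set for each gene) of 9 other genes of the pathway on each array, by group from Y3 with corticosteroid at the left to N4 without it at the right, with replicate symbols and the mean with its SD (n = 3). Erap1, Psme2 and H2-T24 separate the peptides on every array, Irf1 overlaps through its low replicate 1 arrays, Canx runs the other way, and Ifng is highest on the replicate 1 arrays of N4-primed cells.

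Other cell markers moved with the peptide beside these genes. The summed signal of the 7 T cell genes (log2 of the sum) was 18.66 to 19.11 in Y3-primed cells with corticosteroid and 18.52 to 19.21 in those without it, against 18.17 to 18.52 in N4-primed cells with corticosteroid and 18.30 to 18.51 in those without it. Not every T cell gene followed the sum, since Cd2 averaged 13.37 and 13.72 in Y3-primed cells with and without corticosteroid, against 13.82 and 13.99 in N4-primed cells, and Thy1 averaged 14.57 and 14.61, against 14.45 and 14.60, both named after their values were seen. The sum of the 4 class II genes was 10.14 to 10.84 and 10.96 to 11.17 in Y3-primed cells with and without corticosteroid, against 11.22 to 12.38 and 11.83 to 12.08 in N4-primed cells. H2-Aa and H2-Eb1 were under the line on every array, H2-Ab1 was lower on every Y3 array than on every N4 array of the same treatment, and Cd74 overlapped. The sum of the 3 NK cell genes was 9.17 to 9.44 and 9.17 to 9.58 in Y3-primed cells, against 6.68 to 7.91 and 6.93 to 7.87 in N4-primed cells, through Eomes, which CD8 T cells also express, and with Ncr1 under the line everywhere. The part of these shifts in the differences above was not tested.

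The genes most like the set were sought by Pearson's r with the mean of the 9 genes over the 12 arrays, among 6450 genes bright enough to compare. They were Irgm1 (r = 0.985), an interferon-induced GTPase, Map4k2 (0.983), a kinase, Unc93b1 (0.982), the transporter of nucleic acid receptors, Vamp1 (0.981), a vesicle fusion protein, and Leng8 (0.977). The arrays share groups and replicate numbers, so that r describes both together and carries no test. Irgm1 averaged 11.73 in Y3-primed cells with corticosteroid and 11.44 in those without it, against 10.46 in N4-primed cells with corticosteroid and 10.05 in those without it.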

How the data were processed

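RNA of 12 cultures was measured on Affymetrix MTA-1_0 arrays. The deposited gene-level intensities are linear signals summarised by the authors with SST-RMA, per the file headers, and RMA is named in the submitters' processing notes. The series' value table held identical values in all 72688 rows. The deposited intensity values were put on the log2 scale here with no pseudocount, as they were linear where log2 values had been assumed. Array medians were 5.02 to 5.16, and precision is limited by how few arrays there were. Controls and the 25833 transcript clusters without a symbol were left out, leaving 39462 genes. For the 462 symbols with several rows 1 row was used, and each gene described here has 1.

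A model of the 4 groups was fitted with limma 3.58.1 (R 4.3.3; lmFit and eBayes) without a block (8 residual degrees of freedom) and with the replicate number as a block (6). Figures used matplotlib 3.10.9, and tables used pandas 2.3.3 and numpy 2.4.6 in Python 3.11.15. The fit without the block was tested on simulated data that held no replicate effect. The blocked fit, which gave the calls described above, was not tested in this way. Deviations from the group means of arrays with the same label number correlated between the compared groups by 0.180 to 0.882, so the numbers were taken to pair the arrays. In both peptide comparisons, though, Y3 replicate 2 correlated more with N4 replicate 3 (0.468 with and 0.487 without corticosteroid) than with N4 replicate 2 (0.329 and 0.180). Alternatives were another scaling, array weights, a filter on level, a pseudocount of 16, fits of the compared groups alone, a random block and leaving out each array.

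The 10 genes, the pathway lists and the markers were chosen with earlier results of these data known. Genes named by rule were all members, listed pathway genes that were called in either fit with a fixed few others, and the 5 genes most like the mean of the members. Outside that rule, Irf8, Rfxap, Ifngr2, Ifnar2, Cd2 and Thy1 were named after their values had been seen. H2-L, Ciita and some single markers were also named outside it. Of the pathway lists, 1 gene is counted in the totals and is not reported here.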

Additional observations from a re-analysis of the deposited data

How the results depend on the processing

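The 45 differences of the 9 genes were recomputed 1026 times, and 932 kept their direction and their side of the threshold, 5 were newly past it and 89 took the other direction, 9 of these among peptide differences. None of the 45 was called in the fit without the block, so keeping the side meant staying uncalled. For the peptide, the replicate block called 2 of 9 genes with corticosteroid and 1 without it, the block on median-centred values 1 and 1, and the random block 0 and 0, while the block changed no other call of these genes. Over all genes, the peptide comparison called 12 genes without corticosteroid, 1160 with the block, 981 with the block and median centring, 159 with a random block, 78 with array weights, 23 after the level filter and 0 with only the compared groups in the fit, where residual degrees of freedom are fewer, and 0 to 26 with an array left out. With corticosteroid it called 101 genes, 2576 with the block, 2409 with the block and median centring, 938 with a random block, 65 with median centring, 1562 with array weights, 0 with only the compared groups, and 0 to 205 with an array left out. The corticosteroid effect in N4-primed cells called 1 gene with the block and 0 without it. Of the pathway lists the peptide comparison called, with corticosteroid, 15 genes with the block, 13 with median centring added, 6 with a random block and 5 with array weights, and 13, 10, 2 and 2 in cells without corticosteroid. With an array left out it called 9 to 17 and 3 to 15 of them with the block, and 0 to 2 and 0 to 1 without the block, while of the 9 genes the blocked fit called 0 to 2 and 0 to 1.

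Leaving out arrays put the median peptide difference of the 9 genes between 0.11 and 0.67 with corticosteroid (0.42 on all arrays) and between 0.11 and 0.56 without it (0.45), and array weights gave 0.29 without corticosteroid. The median corticosteroid effect lay between -0.073 and 0.19 in Y3-primed and between -0.15 and 0.18 in N4-primed cells. The direction of these peptide differences turned: Psmb8 without corticosteroid (-0.098 to 0.056 with an array left out, 0.044 with quantile scaling), and with corticosteroid Psmb8 (-0.047 to 0.15, and -0.025 with array weights), Tap1 (-0.10 to 0.68) and Psmb9 (-0.033 to 0.39). Corticosteroid effects in Y3-primed cells with an array left out were -0.19 to 0.19 for H2-K1, -0.049 to 0.066 for B2m, -0.24 to 0.20 for Tap1, -0.073 to 0.19 for Tap2, -0.036 to 0.39 for Psmb10, -0.17 to 0.64 for Nlrc5, -0.24 to 0.13 for Psmb9 and -0.11 to 0.012 for Psmb8. In N4-primed cells they were -0.30 to 0.57 for Tap1, -0.088 to 0.57 for Nlrc5, -0.18 to 0.13 for Tap2, -0.17 to 0.20 for Psmb9, -0.27 to 0.18 for H2-K1, -0.13 to 0.062 for B2m, -0.25 to 0.22 for Tapbp and -0.036 to 0.52 for Psmb10. With median centring, with or without the block, the effect in Y3-primed cells was -0.0025 for H2-K1 and -0.0032 for B2m, and quantile scaling gave -0.039 for H2-K1. Array weights gave effects in N4-primed cells of 0.095 for Tap2 and -0.032 for Tapbp. The difference between the corticosteroid effects ran from -0.55 to 0.33 for Tap1, -0.25 to 0.17 for Psmb9, -0.42 to 0.38 for Nlrc5, -0.11 to 0.21 for Tap2, -0.049 to 0.42 for Tapbp, -0.17 to 0.29 for H2-K1, -0.049 to 0.14 for B2m, -0.31 to 0.25 for Psmb10 and -0.038 to 0.17 for Psmb8, and array weights gave -0.058 for Tap2, 0.029 for Psmb9 and 0.15 for Nlrc5. For these changes the cause was not tested. The mean of all rows and the series' value table gave the same values for the 9 genes. All 9 genes were above the background controls on every array, and each group had 3 arrays. How far the number of arrays, the replicate number or the signal level limited these results was not tested.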
